A study of Mus musculus with 18 samples.

Results

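Transcript levels of 8 genes of the PI3K and Akt survival pathway were examined in mouse embryonic stem (ES) cells and in the differentiated (ED) cells derived from them, before and after ionizing radiation (IR). The genes were Akt1, Akt2, Pik3ca, Pik3cb, Pik3r1, Pdpk1, Gsk3b and Foxo3, chosen by name for their roles in the pathway, with earlier results of these data known. They are 8 of the 34289 genes and unnamed transcripts on the array, found through the RefSeq accession of each probe. Together they had 11 probes, with 2 probes each for Akt2, Pik3r1 and Pdpk1. All 18 arrays carried RNA of wild-type primary cells. The stem cells were originally isolated from blastocysts and grew on gelatin with LIF and no feeder layer. The ED cells came from the same stem cells by withdrawal of LIF for 1 week, or until stem cell markers were lost, with no lineage directed. ES and ED cells were left unirradiated. ESRE and EDRE cells had received 10 Gy and were collected after 15 min, and ESRL and EDRL cells had received 10 Gy and were collected after 4 h. Each group had 3 arrays, and nothing in the labels says whether the 3 came from separate cultures, so that p-values measure the spread between these arrays, which may be technical.

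The pathway carries survival signals from growth factor receptors to the cell's interior. Class I PI3K, a dimer of a catalytic subunit (p110alpha from Pik3ca, p110beta from Pik3cb) and a regulatory subunit (p85alpha and its shorter forms from Pik3r1), makes the membrane lipid PIP3. PIP3 recruits the kinase Pdk1, encoded by Pdpk1, and the kinases Akt1 and Akt2, which Pdk1 then phosphorylates. Active Akt phosphorylates and restrains the kinase Gsk3b and the transcription factor Foxo3, which otherwise turns on genes of arrest and cell death. Most of this control acts on proteins and lipids. An array measures only the transcripts, so that nothing below says how active the pathway was, and in bulk RNA fewer cells of a type cannot be told apart from less RNA per cell.

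Levels are given as log2 of the scanner's processed signal minus log2 of the array's 75th percentile, so that a level of 0 is the signal that 75 percent of all probes lie below or at, and 1 unit is a doubling. A probe's level depends on its sequence, and levels of different probes were not compared with each other. A gene was called changed if the test of a probe of that gene passed both a Benjamini-Hochberg adjusted p of 0.05, taken over all probes tested (limma, a linear model of all 18 arrays with moderated variances), and a log2 change of 1. None of the 11 probes was saturated on any array. Each was well above background on all arrays except that of Pik3ca, which was not on 1 of the 3 EDRE arrays.

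The arrays did not have the same quality. EDRE arrays 2 and 3 had a 75th percentile of 875 and 1155 signal units, against 1952 on ESRL array 1 and 2806 to 4268 on the other 15 arrays, and 24.4 and 23.8 percent of their spots were marked as outliers by the scanner software, against 3.33 to 11.1 percent elsewhere. Those spots were left out, so that 6 and 5 of the 11 member probes had no value on EDRE arrays 2 and 3. The arrays were scanned at 6 times. EDRE arrays 2 and 3 shared a scan time with no other array, EDRE array 1 shared one with the 3 EDRL arrays, and ESRE array 3 shared one with the 3 ED arrays. ESRL array 1 was scanned alone, on day 2 of the 2 scan days, and all other arrays on day 1. No scan time held an irradiated group together with its own unirradiated control, so that for these comparisons scan time and IR cannot be told apart except through a model of its spread. The same is true of scan time and cell type, since ED and ES, EDRE and ESRE, and EDRL and ESRL arrays shared no scan time. Among the markers listed for the check of labels, 7 of the 8 stem cell markers tested fell from ES to ED cells. Among the 8 mesenchymal and fibroblast markers, 7 rose and Thy1 fell. Thy1 had a mean level of 1.23 in ES cells and -8.71 in ED cells, where it was not well above background on any array. The summed signal of the 9 stem cell markers, in multiples of the array's 75th percentile, ran from 507.0 to 773 in the 3 stem cell groups and from 16.3 to 32.7 in the 3 differentiated groups. The sum over 8 mesenchymal and fibroblast markers ran from 28.1 to 38.0 and from 409.7 to 550.4. All 4 trophoblast markers (among them Cdx2 and Krt8), all 4 endoderm markers tested and all 4 blood and endothelial markers tested were lower in ED cells, and of 6 neural markers 1 was higher and 2 were lower. These marker levels moved with every cell type difference below, and their part in it was not tested.

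**Figure D1:**
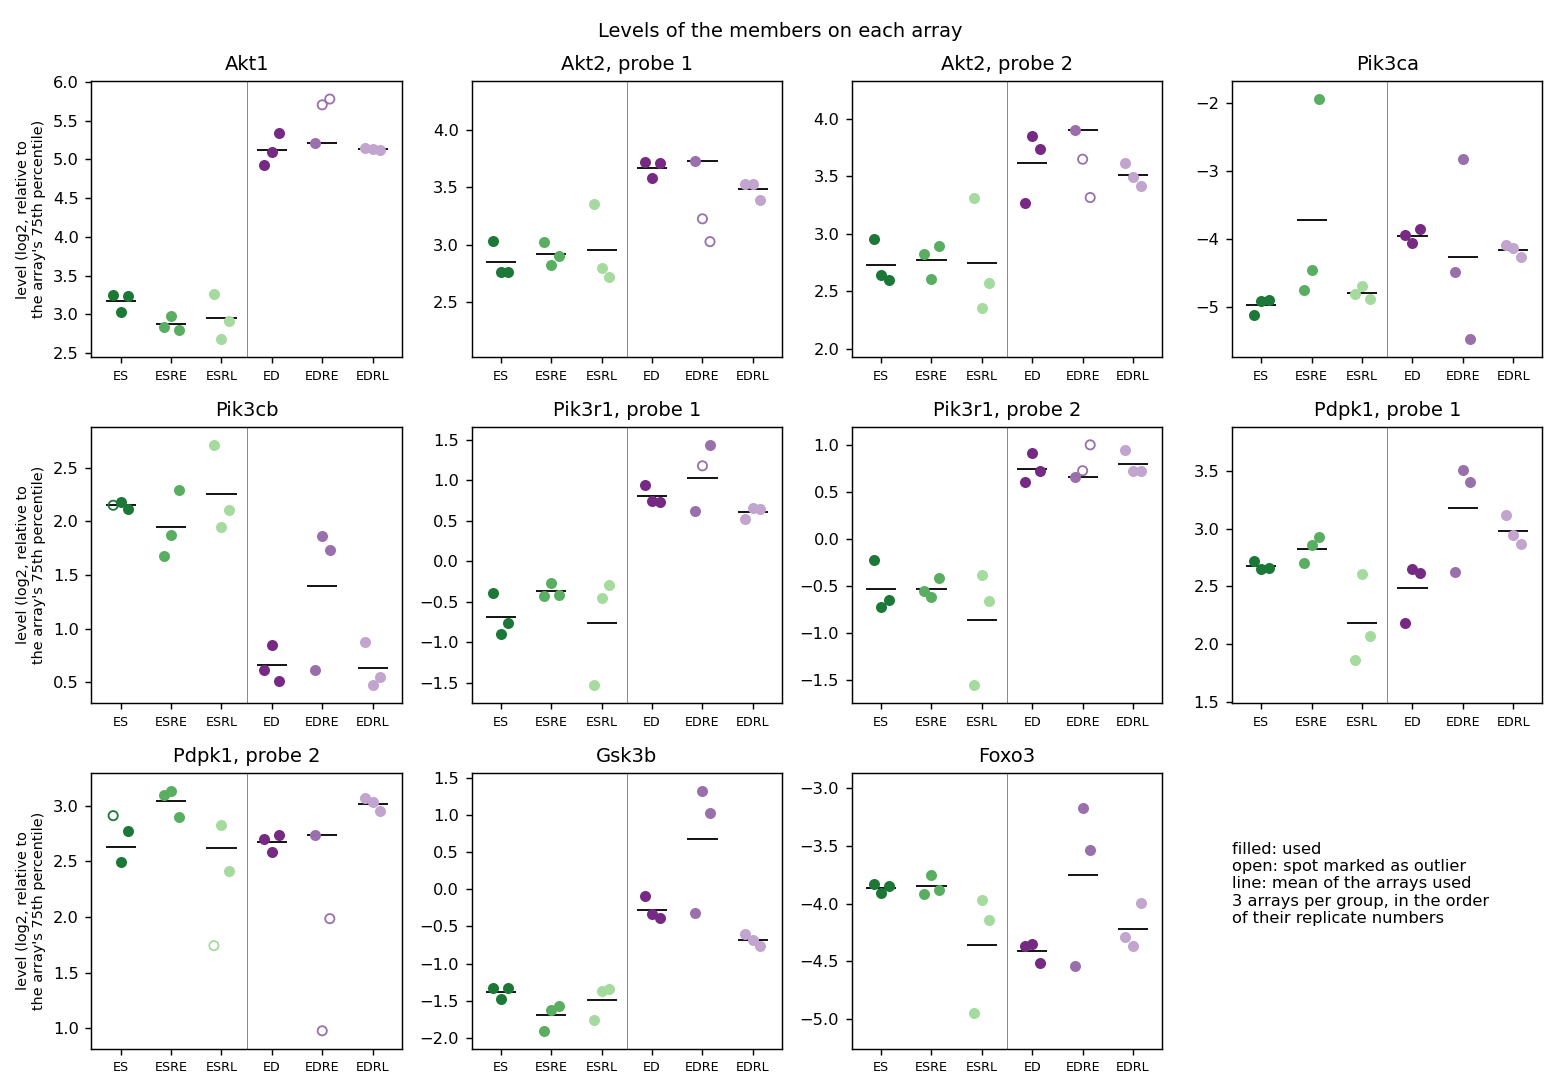
Level of each probe (vertical axis, log2 relative to the array's 75th percentile; each panel has its own range) on the 3 arrays of the 6 groups, with stem cells left and differentiated cells right of the grey line. Akt1 lies higher on every array of differentiated cells than on any array of stem cells, with group means about 2 units apart. The group means of Pik3cb run the other way, and the EDRE arrays of Gsk3b, Pik3cb, Pdpk1 and Foxo3 spread widely.

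Before IR, 4 of the 8 genes differed between ED and ES cells. Akt1, Pik3r1 and Gsk3b were higher in ED cells and Pik3cb was lower, while Akt2, Pik3ca, Pdpk1 and Foxo3 were not called. Of all 26228 genes tested, 41.5% were called in this comparison, 14.9% as higher and 26.7% as lower, so that a count of 4 of 8 is close to what a gene taken anywhere on the array would give. At any size of change, 5 of the 8 passed the adjusted p, beside 51.5% of all genes. The groups did not overlap for 7 of the 8 genes (first probe of each), all but Pdpk1, beside 71.2% of all probes. Over the 8 genes the median log2 change was 0.92, beside -0.19 over all probes tested. The choice of scaling matters here: with each array scaled to its median instead of its 75th percentile, the ED minus ES differences moved up by a median of 0.64, and the members split into 5 higher and none lower instead of 3 and 1. The array as a whole went from 3902 genes higher and 6998 lower to 6971 and 4876.

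Akt1, the isoform best known for blocking apoptosis, had the largest difference of the 8 genes before IR under the main scaling. Its level was 3.25, 3.04 and 3.23 on the ES arrays and 4.92, 5.10 and 5.33 on the ED arrays. The ED arrays all lay above the ES arrays. With means of 3.17 ± 0.12 (SD, n = 3) in ES and 5.12 ± 0.21 (SD, n = 3) in ED cells, Akt1 showed a difference of 1.95 (standard error 0.17, 95% interval 1.57 to 2.32, adjusted p = 6.05e-07, limma) or 3.85-fold. After IR the same separation was measured on other arrays. At 15 min the ESRE arrays were at 2.84, 2.98 and 2.80 and the single EDRE array with a usable spot was at 5.21, a difference of 2.33 (standard error 0.24, adjusted p = 1.98e-06). The spots left out on EDRE arrays 2 and 3 read 5.70 and 5.78. At 4 h the ESRL arrays were at 3.26, 2.68 and 2.91 and the EDRL arrays at 5.14, 5.13 and 5.12, a difference of 2.18 (standard error 0.17, adjusted p = 1.26e-07). Akt1 was called in these 3 comparisons under all 14 alternative settings that could be fitted and with each array left out in turn, except that it had no EDRE value, and so no test at 15 min, without EDRE array 1. Over these settings its change ran from 1.84 to 2.59 before IR. Within the scan time that held both cell types, the 3 ED arrays lay 2.32 above ESRE array 3. That array was irradiated and the ED arrays were not, so that cell type and IR are mixed in this difference. For the first probes of the other members it was 0.77 (Akt2), 1.23 (Pik3r1), 1.30 (Gsk3b), -0.45 (Pdpk1), -0.53 (Foxo3), -1.63 (Pik3cb) and -2.01 (Pik3ca).

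Akt2, the isoform tied to insulin's effect on glucose uptake, was measured by 2 probes, for the transcripts NM_007434 and NM_001110208. The first was at 3.03, 2.76 and 2.77 on the ES arrays and at 3.72, 3.58 and 3.71 on the ED arrays, which did not overlap. Its difference of 0.82 (standard error 0.17, adjusted p = 0.00154) passed the test but not the limit of 1 on the log2 change. The second probe gave 0.89 (standard error 0.24, adjusted p = 0.00752). At 15 min the 2 probes differed by 0.81 and 1.13 between EDRE and ESRE, each with 1 EDRE array, and the second was called (adjusted p = 0.0118). With the outlier spots of EDRE arrays 2 and 3 kept, that probe gave 0.85 and was not called. At 4 h the differences were 0.53 (adjusted p = 0.0179) and 0.76 (adjusted p = 0.0143), below the limit. Both probes passed the limit in all 3 comparisons when arrays were scaled to the median, with changes from 1.01 to 2.03.

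The catalytic subunits of PI3K did not move together. Pik3cb was at 2.18 and 2.11 on ES arrays 2 and 3, the spot on array 1 being marked as an outlier, and at 0.62, 0.85 and 0.51 on the ED arrays. All ED values lay below all ES values, with means of 0.66 ± 0.17 (SD, n = 3) and 2.15 ± 0.05 (SD, n = 2), so that Pik3cb fell by 1.49 (standard error 0.34, adjusted p = 0.0021). At 4 h Pik3cb was at 2.71, 1.95 and 2.11 on the ESRL arrays and at 0.87, 0.47 and 0.55 on the EDRL arrays, a change of -1.62 (standard error 0.30, adjusted p = 3.49e-04) or 3.08-fold lower. At 15 min the change was -0.54 (adjusted p = 0.141) and the groups overlapped. EDRE array 1 was at 0.61, near the ED arrays, whereas arrays 2 and 3 were at 1.86 and 1.73. Without those 2 arrays the change of Pik3cb at 15 min was -1.33 (adjusted p = 0.00433). Scaling to the median left the fall before IR at -0.83, below the limit, and kept that at 4 h, at -1.14.

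Pik3ca was dim. It was at -5.11, -4.91 and -4.90 on the ES arrays and at -3.94, -4.05 and -3.85 on the ED arrays, which did not overlap. The difference was 1.03 (standard error 0.63, adjusted p = 0.201) and was not called, since the model's spread for this probe takes in the ESRE arrays (SD 1.54) and the EDRE arrays (SD 1.34). ESRE array 3 was at -1.94 against -4.75 and -4.45 on arrays 1 and 2, and the EDRE arrays were at -4.48, -2.82 and -5.47. With only the ES and ED arrays in the model, the adjusted p for Pik3ca was 3.03e-04 at a standard error of 0.11.

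Pik3r1, whose product binds and stabilizes the catalytic subunits, was higher in differentiated cells by both of its probes. The probe for NM_001077495 was at -0.39, -0.90 and -0.76 on the ES arrays and at 0.94, 0.75 and 0.73 on the ED arrays. The probe for NM_001024955 was at -0.22, -0.72 and -0.64 and at 0.61, 0.91 and 0.72. Neither probe had overlapping groups. The differences were 1.49 (standard error 0.29, adjusted p = 6.14e-04) and 1.27 (standard error 0.26, adjusted p = 0.00104). At 15 min they were 1.40 (2 EDRE arrays, adjusted p = 0.00192) and 1.18 (1 EDRE array, adjusted p = 0.0131), and at 4 h they were 1.36 (adjusted p = 9.36e-04) and 1.66 (adjusted p = 8.94e-05). At 4 h ESRL array 1 was lowest by both Pik3r1 probes, at -1.52 and -1.55, while ESRL arrays 2 and 3 were between -0.66 and -0.29. Without ESRL array 1 the first probe's change at 4 h was 0.98, just under the limit. With scan time as a random block the differences before IR were 1.30 (adjusted p = 0.0826) and 0.99 (adjusted p = 0.214), and neither was called.

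The sequences before the annotated starts of the 3 genes called both before IR and at 4 h are shown because 2 of these genes were higher and 1 was lower in ED cells. They are the 250 bases before each start on the mouse assembly GRCm38.p6, from RefSeq, written 5′ to 3′ along the gene's strand. Capitals mark the GC box GGGCGG, also in reverse as CCGCCC, and the core of the FOXO binding site, GTAAACA or TGTTTAC.
Akt1, upstream start, chr12:112674885-112675134, minus strand: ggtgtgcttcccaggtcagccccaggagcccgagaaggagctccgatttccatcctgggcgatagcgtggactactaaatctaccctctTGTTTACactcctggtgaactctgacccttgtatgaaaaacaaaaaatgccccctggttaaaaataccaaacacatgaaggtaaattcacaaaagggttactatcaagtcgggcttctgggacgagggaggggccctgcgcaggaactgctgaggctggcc
Akt1, downstream start, chr12:112674277-112674526, minus strand: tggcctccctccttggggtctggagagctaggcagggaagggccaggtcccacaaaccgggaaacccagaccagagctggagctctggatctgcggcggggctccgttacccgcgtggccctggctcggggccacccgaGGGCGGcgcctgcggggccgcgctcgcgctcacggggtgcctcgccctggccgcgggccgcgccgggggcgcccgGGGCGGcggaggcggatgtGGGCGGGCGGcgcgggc
Pik3r1, upstream start, chr13:101768218-101768467, minus strand: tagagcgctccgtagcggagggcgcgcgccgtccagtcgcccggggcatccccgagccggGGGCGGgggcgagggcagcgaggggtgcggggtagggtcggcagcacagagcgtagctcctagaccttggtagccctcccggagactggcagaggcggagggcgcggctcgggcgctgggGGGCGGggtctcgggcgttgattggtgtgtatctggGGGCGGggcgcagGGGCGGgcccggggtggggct
Pik3r1, downstream start, chr13:101692631-101692880, minus strand: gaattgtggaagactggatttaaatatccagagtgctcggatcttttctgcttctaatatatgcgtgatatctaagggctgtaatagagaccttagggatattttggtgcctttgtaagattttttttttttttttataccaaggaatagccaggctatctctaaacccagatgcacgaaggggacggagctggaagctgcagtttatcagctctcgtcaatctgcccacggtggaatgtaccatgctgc
Pik3cb, chr9:99140212-99140461, minus strand: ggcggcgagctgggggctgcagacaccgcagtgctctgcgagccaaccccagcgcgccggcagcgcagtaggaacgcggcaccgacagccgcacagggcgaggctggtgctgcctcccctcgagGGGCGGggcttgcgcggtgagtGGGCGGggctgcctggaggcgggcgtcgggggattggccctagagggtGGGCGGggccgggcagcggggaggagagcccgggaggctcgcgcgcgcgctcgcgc
Akt1 and Pik3r1 each had 1 start rich in CG pairs (31 and 30 pairs, 4 GC boxes each) and 1 with 7 and 6 pairs and no GC box. The single Pik3cb start, of the gene that was lower, had 32 pairs and 3 GC boxes. Over all 32817 start windows of the same length the median was 6 CG pairs with quartiles of 2 and 16, and 32.7% held a GC box. The FOXO core stood in the upstream window of Akt1 and in 3.16% of all windows. These are matches of letters only, and which start was used in these cells was not measured.

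Pdpk1, the gene of the kinase that activates Akt, was not called in any comparison. Its first probe, for NM_011062, was at 2.72, 2.65 and 2.66 on the ES arrays and at 2.18, 2.65 and 2.61 on the ED arrays, a change of -0.19 (95% interval -0.70 to 0.31) with overlapping groups. At 4 h it was at 1.86, 2.61 and 2.07 on the ESRL arrays and at 3.12, 2.95 and 2.87 on the EDRL arrays, a change of 0.80 (standard error 0.23, adjusted p = 0.00829), below the limit. With scaling to the median that change was 1.28 and was called. The second probe, for NM_001080773, gave 0.05 before IR and 0.40 (adjusted p = 0.0728) at 4 h. The 2 probes of Pdpk1 disagreed on EDRE arrays 2 and 3, where the first read 3.51 and 3.41 and the second, from spots marked as outliers, 0.98 and 1.99.

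Of the 2 Akt targets, Gsk3b was higher in differentiated cells. It was at -1.33, -1.48 and -1.34 on the ES arrays and at -0.09, -0.33 and -0.39 on the ED arrays, with no overlap. The difference was 1.11 (standard error 0.31, adjusted p = 0.00695). At 15 min the ESRE arrays were at -1.91, -1.62 and -1.57 and the EDRE arrays at -0.31, 1.33 and 1.03, a difference of 2.38 (standard error 0.30, adjusted p = 8.06e-06) or 5.22-fold. Without EDRE arrays 2 and 3 that difference was 1.38 (adjusted p = 1.26e-04) and still called. At 4 h Gsk3b differed by 0.82 (adjusted p = 0.0309), below the limit. With scan time as a random block the difference before IR was 0.94 (adjusted p = 0.212). Foxo3 was dim and was at -3.83, -3.91 and -3.85 on the ES arrays and at -4.37, -4.35 and -4.52 on the ED arrays. These groups did not overlap, but the change of -0.55 (95% interval -1.19 to 0.09, adjusted p = 0.141) was not called, and its sign turned to 0.09 with scaling to the median. Foxo3 gave 0.10 at 15 min and 0.14 at 4 h, with overlapping groups.

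**Figure D2:**
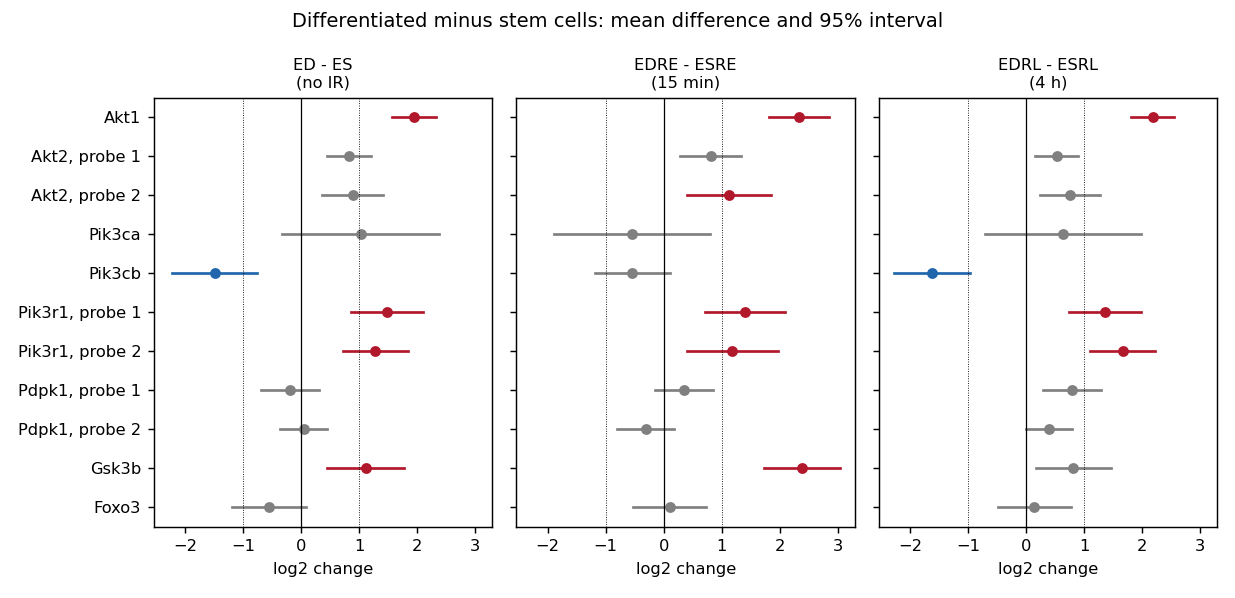
Difference between differentiated and stem cells for each probe (horizontal axis, log2 change; points are mean differences and bars their 95% intervals from the model) before IR, at 15 min and at 4 h. Red marks probes called higher, blue those called lower and grey those not called, and dotted lines mark the limit of 1. Akt1 and both Pik3r1 probes are red in the 3 panels, and Pik3cb is blue before IR and at 4 h.

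Across the 3 cell type comparisons, 4, 4 and 3 of the 8 genes were called, beside 41.5% of all genes before IR, 46.6% at 15 min and 49.4% at 4 h. At 15 min the 4 genes were Akt1, Akt2, Pik3r1 and Gsk3b, all higher in EDRE cells, beside 18.6% of all genes called higher. At 4 h Akt1 and Pik3r1 were higher and Pik3cb was lower, beside 24.5% called higher and 25% called lower. At any size of change, 4 passed the adjusted p at 15 min, beside 56.8% of all genes, and 6 at 4 h, beside 62.2%. The groups of Akt1, Akt2, Pik3r1 and Gsk3b did not overlap at 15 min, where 57.6% of all probes with every spot in use did not, though Akt1 and Akt2 had 1 EDRE array. At 4 h they did not overlap for 7 of the 8 genes, beside 68.2% of all probes. The methods' t-test, on the same values, with the threshold the study used on unadjusted p and a doubling, gave 5, 4 and 3 genes, and after Benjamini-Hochberg adjustment 5, 3 and 3. The fifth gene before IR was Pik3ca. Beside these, 11023 of all 26163 genes passed the unadjusted rule before IR, 8889 of 22031 at 15 min and 10485 of 23915 at 4 h. After adjustment 10735, 7179 and 9612 of all genes passed.

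IR changed none of the 8 genes by these criteria, in either cell type and at either time. In ES cells the counts were 0 of 8 at 15 min and 0 of 8 at 4 h, and in ED cells likewise 0 and 0, by limma and by the methods' t-test. Of all genes, limma called 0.463% at 15 min and 7.59% at 4 h in ES cells, and 5.2% and 1.66% in ED cells. By the methods' t-test with unadjusted p and a doubling, 753 of 25382 and 1895 of 25385 genes passed in ES cells. In ED cells 1102 of 22294 and 874 of 23136 passed at 15 min and 4 h. Of all probes tested, 2633 of 27875 had an unadjusted limma p under 0.05 in ESRE against ES cells. The numbers were 6985 of 27966 in ESRL against ES, 6375 of 24490 in EDRE against ED and 3543 of 25412 in EDRL against ED. Among the 8 members the counts were 1 gene in ES cells at 15 min (Pdpk1) and none at 4 h. In ED cells they were 4 genes at 15 min (Pik3cb, Pdpk1, Gsk3b and Foxo3) and none at 4 h. In the methods' t-test they were 1 in ES cells at 15 min (Akt1, with a change of -0.30), none in ES cells at 4 h, none in ED cells at 15 min and 3 in ED cells at 4 h, namely Akt2 (change of -0.19), Gsk3b (-0.41) and Pdpk1 (0.34 and 0.50 by its 2 probes, of which the smaller change passed after Benjamini-Hochberg adjustment), all below the limit on the change. The groups did not overlap for 3 of the 8 genes in ES cells at 15 min, beside 35% of all probes, for 3 at 4 h, beside 34.1%, and for 5 in ED cells at 4 h, beside 44.6%. Each of the 2 irradiated groups of a cell type was set against the same 3 control arrays.

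For Akt1 the intervals were narrow in the model without scan time, which cannot be told apart from IR in these comparisons. Its change was -0.30 (95% interval -0.67 to 0.07) in ESRE and -0.22 (-0.59 to 0.15) in ESRL against ES cells, and 0.09 (-0.42 to 0.60, 1 EDRE array) in EDRE and 0.01 (-0.35 to 0.37) in EDRL against ED cells. A doubling or halving of Akt1 lies outside each of these intervals. The same holds for both Pik3r1 probes, whose intervals in the 4 comparisons all lay between -0.90 and 0.93. For Pik3ca it does not hold, with intervals as wide as -1.66 to 1.03 in EDRE against ED cells. In ES cells at 15 min the value of Pik3ca was 1.26 (95% interval -0.10 to 2.62), and without ESRE array 3 it was 0.37. Pdpk1 had its lowest adjusted p of the 4 comparisons in EDRE cells, at 0.0744, where its first probe gave 0.70 (95% interval 0.20 to 1.2).

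**Figure D3:**
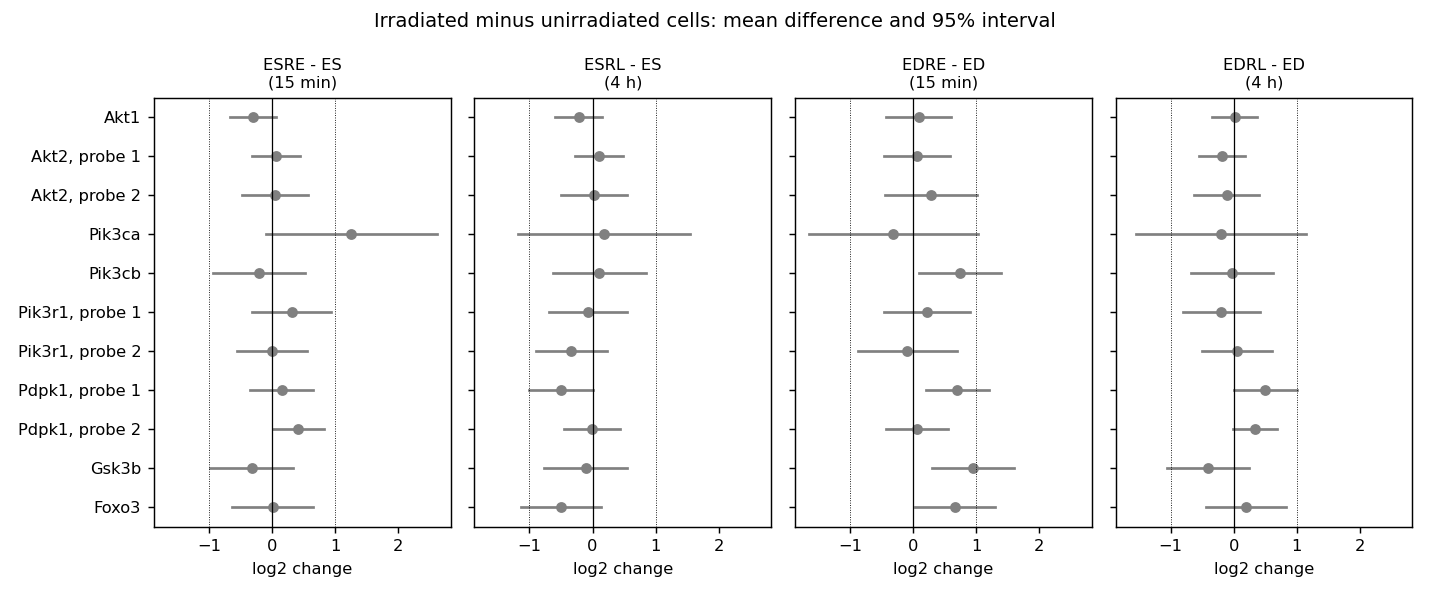
Difference between irradiated and unirradiated cells of the same type for each probe (horizontal axis, log2 change; points are mean differences and bars their 95% intervals). All points are grey because no probe was called. The widest bars belong to Pik3ca, and the bars of Pik3cb, Pdpk1 (probe 1), Gsk3b and Foxo3 lie above 0 in the EDRE panel.

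The 4 genes with an unadjusted p under 0.05 in EDRE against ED cells shared a pattern over arrays. In each of them EDRE array 1 was at the level of the ED arrays or next to it, and arrays 2 and 3 were higher. Gsk3b was at -0.31 on EDRE array 1 and at 1.33 and 1.03 on arrays 2 and 3. Pik3cb was at 0.61 and at 1.86 and 1.73. Pdpk1 was at 2.63 and at 3.51 and 3.41, and Foxo3 at -4.54 and at -3.17 and -3.53. Without EDRE arrays 2 and 3 the changes from ED to EDRE were -0.04 for Gsk3b, -0.04 for Pik3cb, 0.15 for Pdpk1 and -0.13 for Foxo3. Without EDRE array 1 instead, Gsk3b, Pik3cb and Foxo3 were called, with changes of 1.45, 1.14 and 1.06. Arrays 2 and 3 are those with the low signal and the many outlier spots, and their part in these changes was not tested beyond leaving them out.

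**Figure D4:**
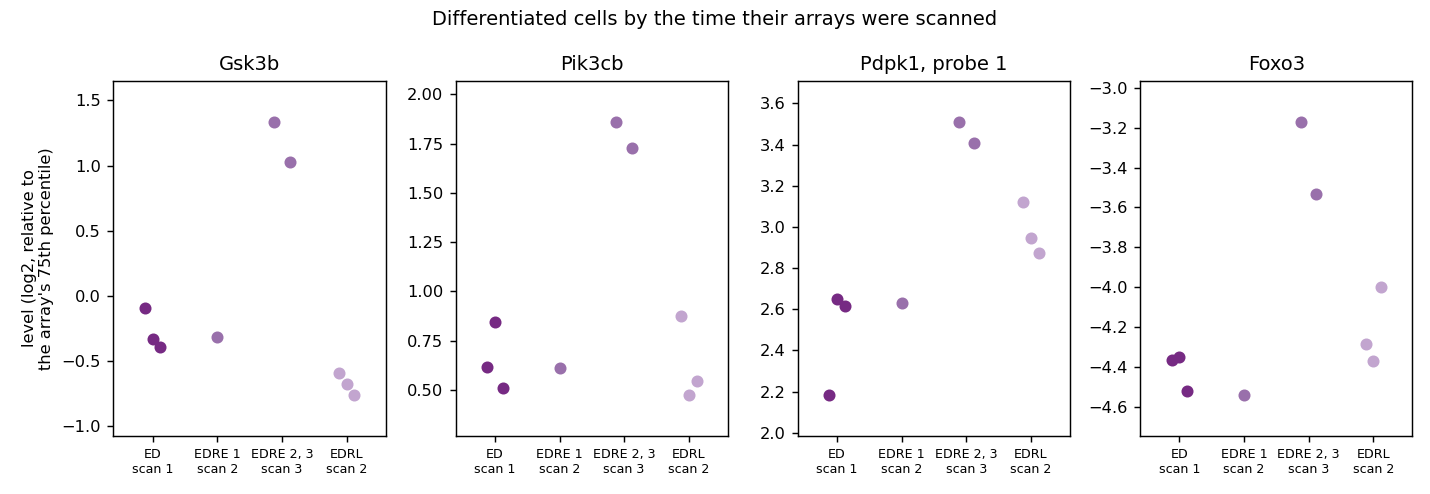
Levels (vertical axis, log2 relative to the array's 75th percentile) of 4 probes on the arrays of differentiated cells, split by the time at which the arrays were scanned; each point is 1 array. EDRE arrays 2 and 3, scanned together, lie above EDRE array 1 in each panel, for Gsk3b at 1.33 and 1.03 against -0.31.

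Between the 2 times after IR, no gene was called in ES cells (ESRL against ESRE, beside 5.22% of all genes) and 1 in ED cells (EDRL against EDRE, beside 7.78%, and 3.82% called lower). At an unadjusted p under 0.05 there was 1 gene in ES cells, Pdpk1, beside 5300 of all 24935 probes tested. Pdpk1 was at 2.70, 2.86 and 2.93 on the ESRE arrays and at 1.86, 2.61 and 2.07 on the ESRL arrays, with no overlap (as for 26.9% of all probes), for a change of -0.65 (standard error 0.23, adjusted p = 0.12). Its second probe gave -0.43 (adjusted p = 0.193). Within the scan time shared by 2 arrays of each group, the Pdpk1 probes differed by -0.44 and -0.50. The gene called in ED cells was Gsk3b. The EDRL arrays were at -0.59, -0.68 and -0.76 and all lay below the EDRE arrays (27.3% of all probes did not overlap), so that Gsk3b fell by 1.36 (standard error 0.30, adjusted p = 0.0147) or 2.57-fold. The call rests on EDRE arrays 2 and 3. Within the scan time shared by the 3 EDRL arrays and EDRE array 1 the difference was -0.36. Without arrays 2 and 3 its adjusted p was 0.536, with scan time as a random block the change was -0.55 (adjusted p = 0.222), and it was not called either without EDRE array 2 or 3 or EDRL array 2 or 3 alone.

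Whether IR acted differently in the 2 cell types was tested as an interaction, the change in ES cells minus the change in ED cells. No member was called at 15 min, beside 2.09% of all genes, or at 4 h, beside 1.16%. With an unadjusted p under 0.05 there was 1 gene at each time, beside 5252 of all 28098 probes tested at 15 min and 4305 of 28375 at 4 h. At 15 min it was Gsk3b, with -1.27 (standard error 0.44, adjusted p = 0.138), which again uses the EDRE arrays. At 4 h it was Pdpk1, with -0.99 (standard error 0.33, adjusted p = 0.176) by its first probe and -0.35 (adjusted p = 0.557) by its second. For Akt1 the interaction was -0.39 (95% interval -1.03 to 0.26) at 15 min and -0.23 (95% interval -0.76 to 0.29) at 4 h.

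The genes around these 8 were read from 6 lists with 84 genes on the array. Before IR 79 of them were tested, and 16 were higher and 21 lower in ED cells, with a median log2 change of -0.09. Beside these stand the 14.9% of all genes called higher and the 26.7% called lower. Among growth factor receptors and adaptors, which feed signals into PI3K, 5 of 16 were higher and 5 lower. The 3 largest rises of all lists were in this one. Pdgfra, a receptor for platelet-derived growth factor, rose by 3.87 (standard error 0.26, adjusted p = 3.61e-08), the adaptor Irs1 by 3.16 (adjusted p = 1.72e-06) and Pdgfrb by 3.13 (adjusted p = 6.16e-08). The genes that fell furthest were Tcl1, which binds and enhances Akt, Eras, a Ras protein of ES cells that binds PI3K, and the receptor Kit. Tcl1 had a mean level of 3.65 in ES cells and was not well above background on any ED array, so that it was at least 2253-fold lower. Eras was likewise at least 1895-fold lower, from a level of 3.40. Kit was called lower too (adjusted p = 3.98e-11), but was well above background on 2 of the 3 ED arrays, and its change ran from -11.43 to -8.83 over the alternatives. The bounds for Tcl1 and Eras set the ES mean against the dimmest signal that still counted as well above background on the ED arrays, or the probe's own signal where that was higher.

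Of the other PI3K subunits 1 of 10 was higher and 4 were lower before IR, of the opposing phosphatases 3 of 10 and 2, of mTORC2 subunits and Akt modulators 4 of 13 and 3, of Akt substrates and mTORC1 1 of 18 and 4, and of FOXO target genes 2 of 12 and 3. After IR the leading genes were mostly the same. Pdgfra, Irs1 and Pdgfrb were the largest rises of EDRE over ESRE cells, at 4.63 (1 EDRE array), 4.25 and 4.2, and Pdgfra, Pdgfrb and Bcl6 those of EDRL over ESRL cells, at 4.76, 3.40 and 3.26 (1 EDRL array for Bcl6, a transcriptional repressor). Tcl1, Kit and Eras were the 3 largest falls at both times.

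**Figure D5:**
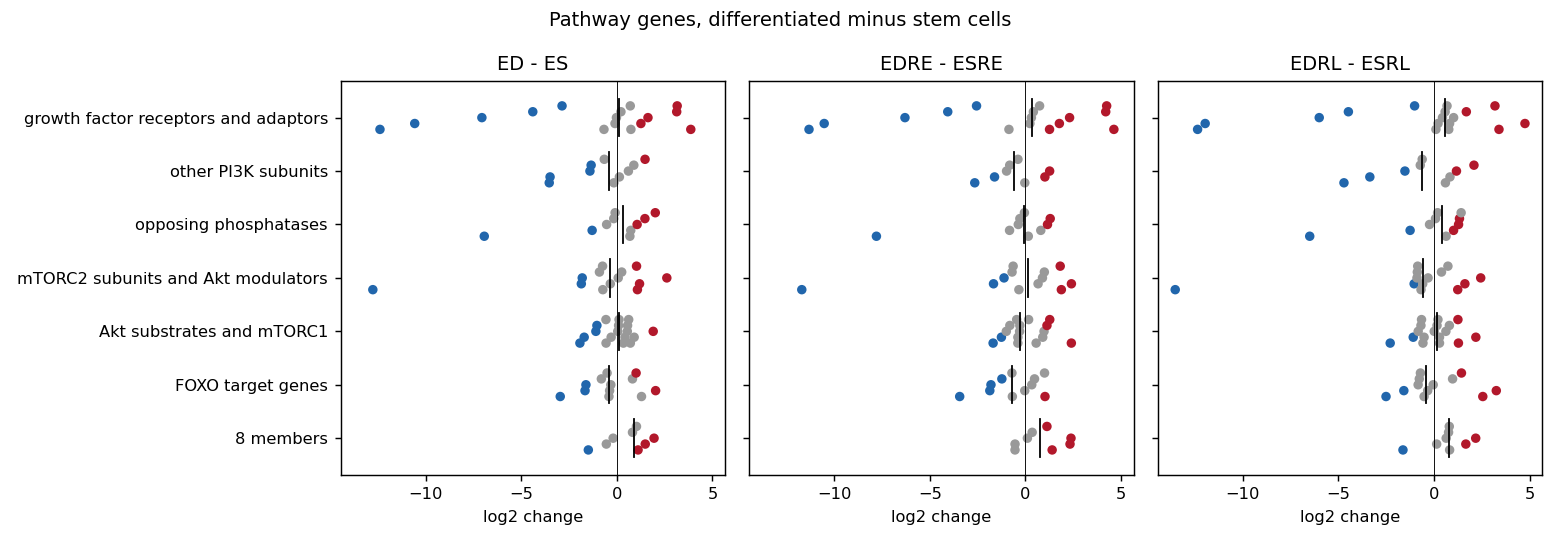
Log2 change between differentiated and stem cells (horizontal axis) of each tested gene in 6 lists of pathway genes and of the 8 members, before IR, at 15 min and at 4 h. Red marks genes called higher, blue genes called lower, grey genes not called, and the black line the median. Most lists hold genes on both sides; their largest falls, Tcl1, Eras and Kit, reach far beyond any member.

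Of the listed genes, none of 76 was called in ESRE against ES cells by limma, beside 0.463% of all genes. In ESRL against ES cells 6 of 77 were called, all as lower, beside 7.59% of all genes called in either direction. Erbb3 (change of -2.39), Pik3cg (-2.28, by 1 of 3 probes) and Pik3ap1 (-1.85) were in front. None of these 3 was called with scan time as a random block. Erbb3 kept its call under 5 of 13 alternative settings and with 4 of the 18 arrays left out in turn, Pik3cg under 6 of 13 and Pik3ap1 under 8 of 13, and Erbb3 and Pik3ap1 were well above background on 1 of the 3 ESRL arrays. Of the 4 endoderm markers tested, 2 were also lower in ESRL than in ES cells, Sox17 (-1.18) and Gata4 (-1.07), and their part in these falls was not tested. In ED cells 1 of 71 was called at 15 min, as lower, beside 5.2% of all genes called in either direction. At 4 h 4 of 76 were called, all as higher, beside 1.66% called in either direction. The gene called at 15 min was Creb1, a transcription factor that Akt phosphorylates, by 1 of 3 probes (change of -1.66, adjusted p = 0.0408). It was well above background on 1 of the EDRE arrays, and the call held with 4 of the 18 arrays left out in turn and under 4 of 12 alternative settings. The 3 largest rises at 4 h were those of the lipid phosphatase gene Inpp5d (2.87 by 1 of 3 probes, adjusted p = 1.04e-06), the regulatory subunit gene Pik3r3 (1.40, adjusted p = 0.0218) and Mdm2 (1.39, adjusted p = 1.09e-04), whose product restrains p53 and is itself a p53 target. With scan time as a random block Pik3r3 and Mdm2 were not called, and Pik3r3 kept its call with 12 of the 18 arrays left out in turn, losing it when any 1 of the ED or EDRL arrays was left out. The remaining one, Egfr, named after its value was seen, gave 1.36 (adjusted p = 0.00616). Mdm2 was also the only gene of the 75 listed genes tested that was called higher in ESRL against ESRE cells (1.04, adjusted p = 0.00103). Pik3cg (-2.19) and Pik3ap1 (-1.76) were the 2 called lower, beside 5.22% of all genes called. These calls of Mdm2, Pik3cg and Pik3ap1 held under 10 of 15, 5 of 14 and 11 of 14 alternative settings, and that of Mdm2 was lost with scan time as a random or a fixed block and without ESRL array 1. In EDRL against EDRE cells 4 of 70 were higher and 4 lower, beside 7.78% of all genes called and 3.82% called lower. The rises were led by Inpp5d (2.54), Pik3r3 (2.01) and Pik3cd (1.69), and the falls by Akt1s1 (-1.31), Irs1 (-1.25) and Tbc1d4 (-1.18). These 3 falls and the rise of Pik3cd, like the fall of Gsk3b, were not called without EDRE arrays 2 and 3, nor with scan time as a block.

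The genes most like each member were found by Pearson's r over the arrays where the member was measured. Only named probes in use and well above background on each of those arrays were compared. Their number differed by member, from 3654 for Gsk3b to 9672 for Akt1. The arrays fall into 2 clusters by cell type. For members that differ between the cell types, r therefore mostly tells which genes split the cell types alike. It is given as a description. For Akt1 they were Pdlim4 (r = 0.997), Shisa5 (0.996) and B2m (0.995) over 16 arrays. For Gsk3b they were Zfp275 (0.988), Hcfc2 (0.983) and Dock5 (0.981) over 18 arrays, and for Akt2 Zfp358 (0.974), Pomgnt1 (0.971) and Ctbp1 (0.970) over 16 arrays. For Pik3cb they were Gng2, Mns1 and Cdpf1 and for Pik3r1 Scaf11, Cul4a and P2ry10b, with r from 0.965 to 0.971 over 17 arrays. For Pdpk1 (Zfp647, Pp2d1 and Hbs1l) and Foxo3 (Chrnb4, Tnc and Mybpc1) r was 0.886 to 0.908 over 18 arrays. Neither of these 2 members was called between the cell types. Both were highest on EDRE arrays 2 and 3 and lowest on ESRL array 1, and the part of these arrays in r was not tested. Among the 3655 probes compared with Pik3ca none followed it closely, the nearest being that of Gm10487 at 0.613.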

How the data were processed

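RNA was extracted with a column kit, labelled with Cy3 and hybridised to Agilent arrays, 1 sample to an array, and read with Agilent Feature Extraction (version 10.7.3.1 in the file headers, 9.1 in the submitters' processing notes). The deposited files hold each spot's intensity as the scanner software's processed signal, which the authors obtained after background subtraction; of 39448 spots, 1417 controls and 200 unmarked negative controls were left out, leaving 37246 probes. The authors' deposited matrix of log2 values for 30133 probes was used as an alternative. Its values were log2 of the processed signal, with signals under 5 set to 5, minus about the array's median (within 0.062), with column medians of 0.57 to 0.72.

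Signals were scaled to the array's 75th percentile, spots with the software's non-uniformity or population outlier mark were dropped, and spots of a probe were averaged. A probe entered a comparison if either group had it well above background on its 3 arrays. The test was that of limma 3.58.1 in R 4.3.3, with the fit taken per pattern of missing spots, so that a group with 1 value is assumed to vary like the others. The code was tested on simulated data. Of the probes, 22216 were named by matching their accessions to RefSeq genes of GRCm38.p6, and only names were taken from that table. Depth is not defined for arrays; their number limits the precision.

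The members and lists were chosen with earlier results of these data known. Named in each comparison were all members and, of the other listed genes, the 3 largest rises and falls among those called; Pik3c2b and Phlpp1 matched no probe, and the values of some listed genes are not reported here. Alternatives were normexp background correction, median scaling, quantile normalization, outlier spots kept, no or a stricter filter on dim probes, only the groups compared, the methods' t-test, no limit on the change, a replicate block, scan time as a random or fixed block, the mean over a gene's probes, the deposited matrix, and leaving out arrays.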

Additional observations from a re-analysis of the deposited data

Results flagged for a closer look

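No member differed between the cell types in its response to IR by the test of the difference. Of the listed pathway genes, 2 did at 4 h. For Inpp5d, which encodes a lipid phosphatase that acts on PIP3, the interaction was -2.69 (standard error 0.27, adjusted p = 4.08e-04, limma). It was at 3.50 ± 0.01 (SD, n = 3) in ES and 3.68 ± 0.26 (SD, n = 3) in ESRL cells, and at -5.32 ± 0.35 (SD, n = 3) in ED and -2.45 ± 0.19 (SD, n = 3) in EDRL cells, a change of 0.18 (adjusted p = 0.613) against 2.87. Only 1 of its 3 probes was called. For Prr5, a subunit of mTORC2, the interaction was -1.0 (standard error 0.23, adjusted p = 0.0473): it fell by 1.31 in ESRL against ES cells and changed by -0.30 (adjusted p = 0.416) in EDRL against ED cells. The call of Prr5 held under 5 of 13 alternative settings and with 5 of the 18 arrays left out in turn, that of Inpp5d under 10 of 12 and all 18.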

How the results depend on the processing

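Of 1657 tests of single member probes under the alternative settings, 1604 kept their side of the threshold, 15 lost and 38 gained a call, and none that was called changed direction. Before IR, where 4 members were called, scan time as a random block (estimated correlation 0.762 between arrays of 1 scan time) left 2, Akt1 and Pik3cb. At 4 h between cell types, where 3 were called, the count was 6 with scaling to the median, 6 with the authors' matrix, 6 with no limit on the change and 5 with scan time as a random block. In EDRE against ED cells, where none was called, scaling to the median and the authors' matrix each gave 1, Gsk3b. In EDRL against EDRE cells, where 1 was called, it was 0 when only the groups compared were fitted, 0 with the methods' t-test, 0 with scan time as a random or as a fixed block, 0 without EDRE arrays 2 and 3, and 2 with outlier spots kept or with the authors' matrix, the second gene being Pdpk1.

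With 1 array left out in turn the counts ran from 4 to 5 before IR, 2 to 4 at 15 min (2 without EDRE array 1, when fewer members had a value) and 3 to 4 at 4 h between cell types, from 0 to 3 in EDRE against ED cells (3 without EDRE array 1), from 0 to 2 in EDRL against EDRE cells, from 0 to 3 for the interaction at 15 min (3 without EDRE array 1) and from 0 to 1 for that at 4 h (1, Pdpk1, without ESRL array 2). They stayed at 0 in the other comparisons. The replicate numbers did not pair the arrays: of 45 pairs of arrays with the same number in different groups, 9 had a correlation of their deviations over 0.1 (range -0.43 to 0.30). Of 90 pairs with different numbers, 22 did (range -0.37 to 0.39). The replicate block left the counts at 4, 4 and 3 between cell types and moved none of the others.

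Scan time as a fixed block was run for ESRL against ESRE and EDRL against EDRE cells alone, being not estimable in the other comparisons. The causes of these shifts were not tested. Pik3ca, which was not well above background on 1 EDRE array, had the least precise difference before IR, with a standard error of 0.63.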
